A study of Rattus norvegicus with 21 samples.

Results

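The receptors described here bind the monoamines noradrenaline, dopamine, serotonin and histamine, or acetylcholine, adenosine and extracellular nucleotides. They were taken as every probe of the array whose annotated gene symbol begins with Adra, Adrb, Drd, Htr, Hrh, Chrm, Chrn, Adora, P2rx or P2ry followed by a receptor number or letter, with the receptor kinases left out. This gave 69 probes of 65 genes, out of 4962 probes with a value. By family there were 6 probes of alpha adrenoceptors, 2 of beta adrenoceptors, 5 of dopamine receptors, 13 of serotonin receptors, 3 of histamine receptors, 6 of muscarinic and 17 of nicotinic acetylcholine receptors, 4 of adenosine receptors, 8 of P2X and 5 of P2Y receptors. Genes with more than 1 probe were Chrna7, Chrm3, Htr7 and P2rx2, each with 2 probes.

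The study, whose title concerns compounds against inflammation in spinal cord injury (SCI), measured total RNA of rat spinal cord on 21 arrays with 2 channels, 3 arrays in each of 7 groups. The Uninjured group was cord dissected fresh, and the Injured 4 hr group was spinal cord cultures given PBS (phosphate-buffered saline, the vehicle) for 4 hr and kept unpooled. The CKIN, MP and Acet groups were 4 hr cultures given CKIN, MP or acetaminophen, and all 5 of these groups shared 1 kind of reference, a pool of 4 hr cultures given PBS. The sample titles do not say that it was the same pool in all 5. Setting treated against Injured 4 hr cultures assumes that it was. The Indo group was 4 hr cultures given indomethacin, measured against a pool of cultures given ETOH (ethanol), and the NS398 group was 4 hr cultures given NS398, measured against a pool of cultures given DMSO (dimethyl sulfoxide). Acetaminophen relieves pain and fever, indomethacin is a general cyclooxygenase inhibitor and NS398 is selective for the inducible enzyme, while CKIN and MP stand in the labels as letters only. Thus every sample and pool but the Uninjured cord was a 4 hr culture, and beyond the group name nothing in the labels says how the cord was injured. The sources used here do not give strain, age, dose or how many animals gave each sample.

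As background, most of these proteins are G protein-coupled receptors of the cell surface. Beta adrenoceptors, Drd1, Htr6 and Adora2a raise cyclic AMP, whereas alpha-2 adrenoceptors, Drd2, Htr1a and Adora1 lower it, and alpha-1 adrenoceptors, Hrh1, Chrm1, Chrm3 and Chrm5 act through phospholipase C. Nicotinic receptors, P2X receptors and the Htr3 type of serotonin receptor are ion channels opened by their ligand. In the spinal cord, noradrenaline and serotonin come from fibres that descend from the brainstem, acetylcholine is the transmitter of motor neurons, and adenosine and ATP are released from damaged or active cells.

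All values are log2 ratios of a sample to its reference pool, minus the median of the array, so a value of 0 is the median probe and a difference of 1 is a doubling. That the sample stands over the pool is likely from the order in the sample titles but is not stated. Such ratios compare samples for 1 probe and do not show how strongly a receptor was expressed, so no probe is set against another. A change was called where its 2-sided adjusted p in limma was under 0.05, with Benjamini-Hochberg adjustment over all probes tested in that comparison. Nothing in the labels says whether the 3 replicates of a group were separate animals or cultures, so the tests only capture the spread among the samples at hand.

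The arrays were of unequal quality. Before centring, the median of an array was -4.12 to -3.09 for fresh cord, -2.26 to -2.12 for Injured 4 hr cultures and -1.62 to 0.70 for the 15 treatment arrays. The SD of all centred ratios was 1.39 to 1.47 on Uninjured arrays against 0.77 to 0.80 on Injured 4 hr arrays. Receptor probes lacked a value at 19.2% of their spots on treatment arrays, against 2.90% on the other 6 arrays, and 12 of the 69 probes were measured on all 21. All CKIN and Indo arrays, MP 1 and 3, Acet 1 and NS398 1 each had more than 1100 missing spots. A further 8.13% of the receptor values on treatment arrays were exact ratios of whole numbers up to 12, against 0.995% on the other 6 arrays, and over all probes these shares were 5.44% and 0.394%. This difference coincides with the difference between treated and Injured 4 hr cultures, and the contributions cannot be told apart.

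**Figure D1:**
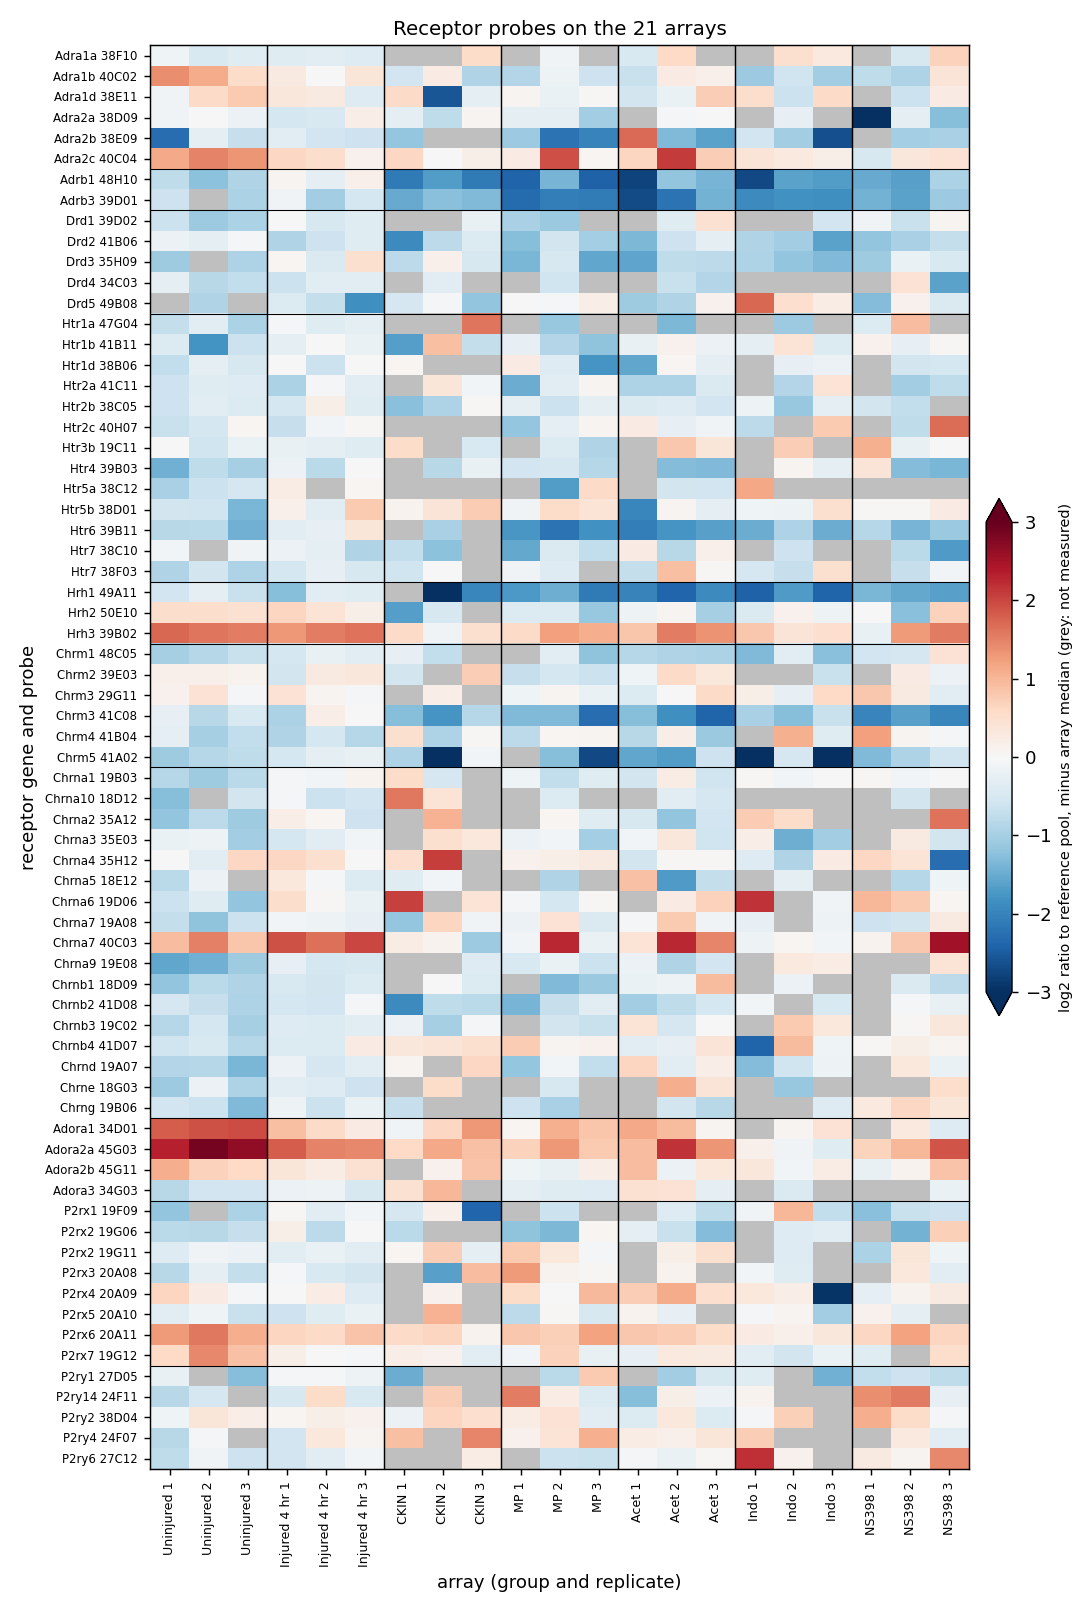
Centred log2 ratios of the 69 receptor probes (rows, by family) on the 21 arrays (columns, by group), from blue (below the array median) to red (above it), with grey cells not measured and colours capped at -3 and 3. Adrb1, Adrb3, Htr6 and Hrh1 form blue rows across the treatment arrays, Hrh3, Adora1 and Adora2a are red on the 3 Uninjured arrays, and grey cells are mostly on treatment arrays.

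Comparing Injured 4 hr with Uninjured, which sets cord kept 4 hr in culture against fresh cord, 2 of 68 receptor probes tested were called, while 14.3% of all 4822 probes tested were. The adenosine A1 receptor gene Adora1 fell and the serotonin receptor gene Htr6 rose. This count rested on the processing: 51 receptor probes were called in deposited ratios, 20 when only these 6 arrays were fitted and 0 after quantile or scale normalization. The median change of the 68 receptor probes was 0.28, against -0.04 for all probes, and was 0.09, 0.01 and 0.13 after quantile normalization, scale normalization and in corrected ratios (corrected for their trend with the mean Injured 4 hr ratio and for source plate). In centred ratios 45 of the 68 changes were positive, and in deposited ratios all 68. Of all probes, 13.5% were called lower and 0.809% higher. For comparison, 3 of 41 probes of glutamate, GABA and glycine receptor genes and 9 of 96 probes of voltage-gated and potassium channel genes were called.

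Among the 58 receptor probes measured on all 6 arrays, the 3 Injured 4 hr values lay above the 3 Uninjured values for 19 and below them for 8. Over all 4115 probes so measured, 19.1% were above, 33.5% below and 52.6% either.

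Adora1 (probe 34D01), the inhibitory adenosine receptor of many synapses, read 1.81, 1.91 and 1.97 on the Uninjured arrays and 0.90, 0.57 and 0.26 on the Injured 4 hr arrays. Every fresh cord was higher than every culture, a change of -1.32 ± 0.39 (SE; limma adjusted p = 0.0281, n = 3 and 3). Adora2a (45G03), which couples to cyclic AMP production, read 2.33, 2.87 and 2.67 in Uninjured and 1.82, 1.49 and 1.44 in Injured 4 hr. These groups did not overlap either, with a change of -1.04 ± 0.36 that missed the threshold (limma adjusted p = 0.0556). The lower-affinity Adora2b (45G11) had a change of -0.44 ± 0.35 without overlap, and Adora3 (34G03) one of 0.39 ± 0.32, from -0.84, -0.58 and -0.58 to -0.18, -0.16 and -0.49. So 3 of the 4 adenosine receptor probes were lower on every Injured 4 hr array in centred ratios, while after quantile normalization 3 of the 4 changes were positive. The Adora1 change was 0.21 in deposited ratios, -0.24 after quantile normalization (limma adjusted p = 0.998) and -0.36 after scale normalization (0.979), and its call ended without any 1 of 5 of the 6 arrays, at -1.48 to -1.16 over all 6 omissions.

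**Figure D2:**
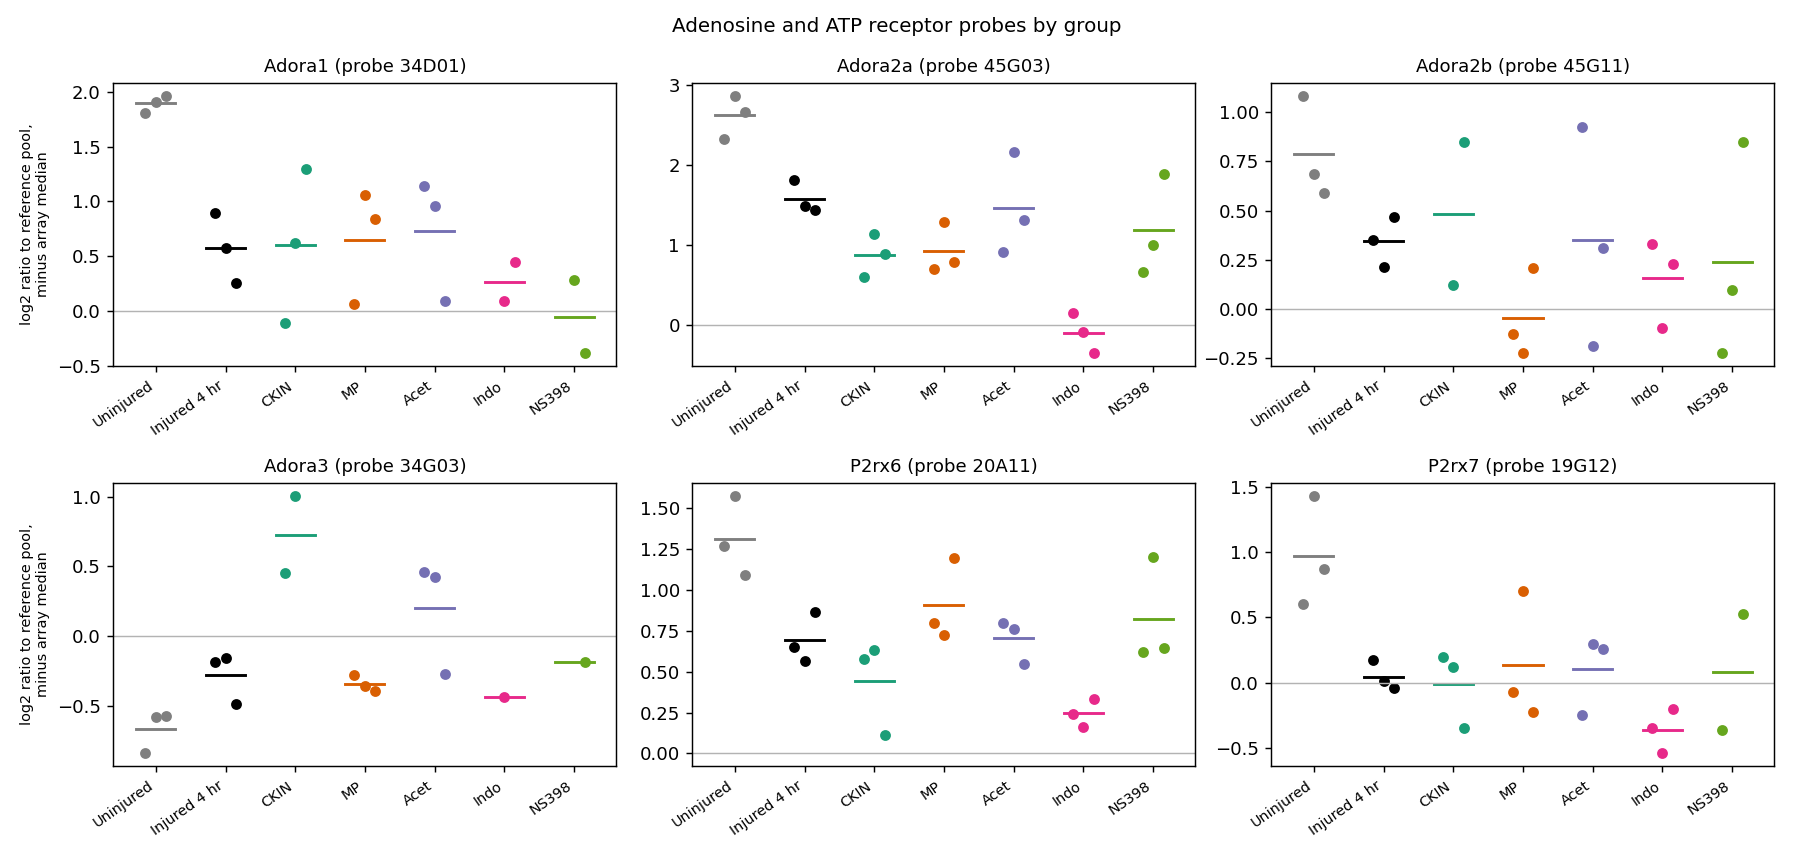
Centred log2 ratios (vertical axis) of the 4 adenosine receptor probes and of P2rx6 and P2rx7 in the 7 groups, with 1 point per array and a bar at the group mean. Adora1, Adora2a and P2rx7 lie higher on the 3 Uninjured arrays than on the 3 Injured 4 hr arrays, and P2rx6 is above 0 on all 21 arrays.

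Receptors for ATP and other nucleotides gave no call between fresh and cultured cord. P2rx7 (19G12), the ATP-gated channel known from microglia, read 0.61, 1.43 and 0.87 in Uninjured and 0.17, 0.01 and -0.04 in Injured 4 hr. The groups were apart, with a change of -0.92 ± 0.34 (limma adjusted p = 0.0727), and was called when only these 6 arrays were fitted (0.0133). In deposited ratios its change turned to 0.60, and after quantile and scale normalization it was -0.36 and -0.52 without a call. P2rx6 (20A11), a P2X subunit, went from 1.27, 1.58 and 1.09 to 0.65, 0.56 and 0.87, a change of -0.62 ± 0.28 (limma adjusted p = 0.152). The other P2X probes had changes from -0.33 (P2rx4, 20A09) to 0.95 (P2rx1, 19F09), with P2rx3, P2rx5 and both P2rx2 probes between them. Among the P2Y receptors, which couple to G proteins, changes ran from -0.03 ± 0.36 for P2ry2 (38D04) to 0.67 ± 0.48 for P2ry1, with P2ry4, P2ry6 and P2ry14 between. P2ry6 (27C12), the largest positive change of a P2Y probe measured on all 6 arrays, had a change of 0.18 ± 0.45, and the values of both groups overlapped. P2ry2 read -0.12, 0.36 and 0.20 in fresh cord and 0.06, 0.18 and 0.12 in cultures, so cultures lay inside the range of fresh cord.

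Htr6 (39B11), a serotonin receptor that raises cyclic AMP, read -0.84, -0.82 and -1.44 on Uninjured arrays and -0.31, -0.25 and 0.37 on Injured 4 hr arrays. All 3 cultures were above all 3 fresh cords, a change of 0.97 ± 0.32 (limma adjusted p = 0.0484). The call ended when any 1 of the 6 arrays was left out, at 0.75 to 1.09. It also ended after quantile (0.87) and scale (0.52) normalization and in corrected ratios (0.80). Htr5b (38D01) had the largest positive change of a serotonin receptor, 1.06 ± 0.43 (limma adjusted p = 0.106), from -0.56, -0.61 and -1.38 to 0.14, -0.32 and 0.79. Again no value of the groups overlapped. The channel subunit gene Htr3b (19C11) was near 0 change at -0.01 ± 0.39. Of the 13 serotonin receptor probes 11 had a positive change, among them Htr1a, Htr1b, Htr1d, Htr2a, Htr2b, Htr2c, Htr4 and Htr5a, but after quantile normalization 6 did and in corrected ratios 5.

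No adrenoceptor was called. Adra2c (40C04), an alpha-2 receptor that restrains transmitter release, went from 1.13, 1.48 and 1.32 to 0.62, 0.52 and 0.14, and Adra1b (40C02) went from 1.40, 1.11 and 0.56 to 0.26, 0.00 and 0.37. In both genes fresh cord was higher on every array, with changes of -0.88 ± 0.44 and -0.81 ± 0.39 that were not called (limma adjusted p = 0.187 and 0.17). Adra1a, Adra1d and Adra2a changed by -0.34 to -0.04, and Adra2b (38E09) by 0.58 ± 0.70, with Uninjured values of -2.29, -0.27 and -0.69 that spanned those of the cultures. Adrb1 (48H10), the beta-1 adrenoceptor, read -0.76, -1.23 and -0.91 in fresh cord and 0.07, -0.27 and 0.15 in cultures. The change was 0.95 ± 0.41 (limma adjusted p = 0.127) and Adrb3 changed by 0.23 ± 0.37. Alpha adrenoceptors had 5 of 6 negative changes in centred, quantile-normalized and corrected ratios, 6 of 6 after scale normalization and none in deposited ratios. Both beta changes were positive in centred and deposited ratios, and 1 of the 2 was negative in each of the quantile, scale and corrected settings.

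Of the dopamine receptors, Drd1 (39D02) had a change of 0.62 ± 0.34, Drd2 (41B06) of -0.46 ± 0.37 and Drd3 (35H09) of 1.03 ± 0.42 from 2 Uninjured and 3 Injured 4 hr arrays, and none was called. Drd1 and Drd2 mark opposite branches of dopamine signalling, the first raising and the second lowering cyclic AMP. Drd1 read -0.65, -1.09 and -0.94 in Uninjured and 0.01, -0.47 and -0.35 in Injured 4 hr, whereas Drd2 read -0.17, -0.29 and -0.06 and then -0.91, -0.61 and -0.37. Drd4 changed by 0.17 ± 0.45. Drd5 was measured on 1 Uninjured array and was not tested.

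The 3 histamine receptor probes did not differ between fresh and cultured cord beyond their spread, with changes of -0.17 ± 0.48 for Hrh1, -0.09 ± 0.43 for Hrh2 and -0.13 ± 0.38 for Hrh3. Hrh3 (39B02), the receptor by which histamine neurons restrain their own release, read 1.71, 1.61 and 1.54 in fresh cord and 1.30, 1.53 and 1.64 in cultures. Muscarinic receptors were likewise without a call. Chrm5 (41A02) went from -1.07, -0.87 and -0.76 to -0.54, -0.28 and -0.21, without overlap, with a change of 0.56 ± 0.79. The fit shares its estimate of spread with the treatment arrays, on which Chrm5 read -4.96 to -0.09. Chrm2 (39E03), the inhibitory muscarinic receptor also known from heart, changed by -0.11 ± 0.37, Chrm1 by 0.48 ± 0.36 and Chrm4 by -0.08 ± 0.46.

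All 17 probes of nicotinic receptor subunits had a positive change in centred ratios, with a median of 0.50 against -0.04 over all probes. None was called, and 3 had an unadjusted p under 0.05 in limma, beside 29% of all probes. With scale normalization 11 of 17 changes were positive and the median was 0.16, and with quantile normalization and corrected ratios 14 of 17 were positive. Of the 15 nicotinic probes measured on all 6 arrays, 10 had every culture above every fresh cord, beside 19.1% of all probes. Chrna9 (19E08), a subunit best known from hair cells, read -1.57, -1.44 and -1.07 in Uninjured and -0.24, -0.52 and -0.48 in Injured 4 hr, a change of 0.95 ± 0.31 (limma adjusted p = 0.0513). Chrna1 (19B03), the acetylcholine-binding subunit of the muscle receptor, read -0.85, -1.08 and -0.82 and then -0.03, -0.08 and 0.10. Its change of 0.91 ± 0.32 also lay just outside the threshold (limma adjusted p = 0.0582). Of 8 muscle marker probes tested, 1 was lower and none higher in the same comparison. The other muscle-type subunits Chrnb1, Chrnd, Chrne and Chrng changed by 0.28 to 0.71, and the neuronal subunits Chrna2, Chrna3, Chrna4, Chrna5, Chrna6, Chrna10, Chrnb2, Chrnb3 and Chrnb4 by 0.15 to 0.88.

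**Figure D3:**
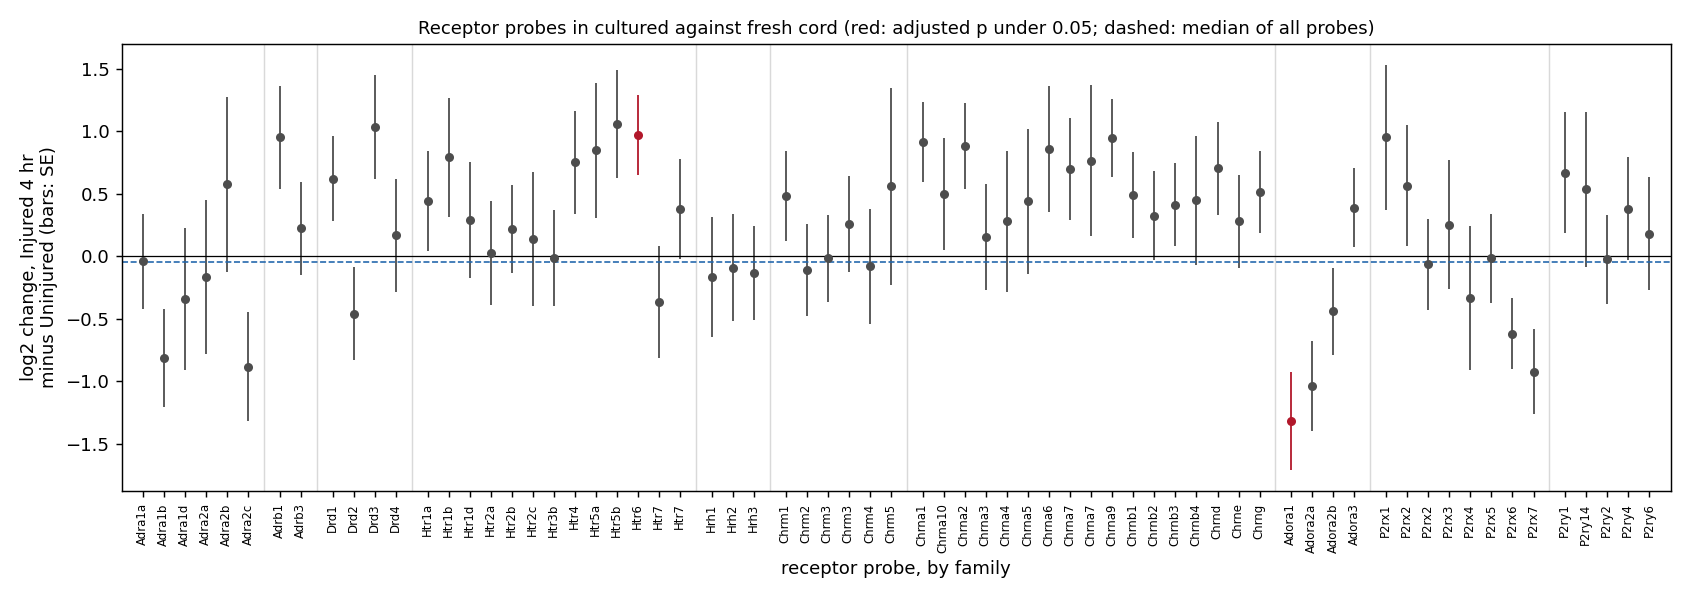
Change from Uninjured to Injured 4 hr (vertical axis, log2, with SE) of each of the 68 receptor probes tested, ordered by family. Adora1 at -1.32 and Htr6 at 0.97 are the calls (red), all 17 nicotinic probes lie above 0 in these centred ratios (14 after quantile normalization and in corrected ratios, 11 after scale normalization), and the dashed line marks the median of all probes at -0.04.

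For genes around these receptors, the share called was near that of all probes in the same comparison, of which 13.5% were lower. From a list of 30 measured genes for making, storing, taking up and breaking down the transmitters (32 probes tested), 5 probes were lower and none higher, with a list median of -0.01 beside -0.04 for all probes. The acetylcholine genes among them were Slc5a7, the choline transporter (-2.10 ± 0.38), Ache, acetylcholinesterase (-1.59 ± 0.51), and Slc18a3, the vesicular acetylcholine transporter (-1.01 ± 0.31). Adk, adenosine kinase, fell by 1.53, and Maob, which breaks down monoamines, fell by 1.27. From a list of genes that handle or relay these receptors (18 genes, 17 of 19 probes tested), 3 probes fell, with a list median of 0.10. They were 1 of 2 probes of Agrn, which clusters receptors at the muscle synapse (-2.10 ± 0.35, the other at -0.89 ± 0.37), and those of Ppp1r1b, a dopamine-regulated phosphatase inhibitor (-1.60 ± 0.40), and of the scaffold Nherf1 (-1.06 ± 0.35). Both lists, like the receptors, were chosen with earlier results of these data known.

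Markers of neurons and astrocytes moved along with this comparison. Of 12 neuron marker probes 8 were lower and none higher, with a mean centred ratio of 3.50 to 3.84 per Uninjured array and 1.64 to 1.72 per Injured 4 hr array. Of 9 astrocyte probes 6 were lower (2.74 to 2.90 against 0.92 to 1.06). Both cholinergic motor neuron probes were lower, but they are the Slc5a7 and Slc18a3 probes already given among the transmitter genes. None of 7 microglia and macrophage probes was called (-0.11 to 0.12 against 0.14 to 0.37). These markers also moved between like cultures. In Injured 4 hr against the PBS pool, all 12 neuron probes were higher, with a median of 1.66. So were 5 of 9 astrocyte probes (median 0.73) and 1 of 7 microglia and macrophage probes, with none lower. Over all probes 21% were called higher there. Fewer cells of a type and less RNA per cell cannot be told apart in such samples, and the part of these markers in the receptor changes was not tested.

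Between treated and Injured 4 hr cultures most receptor calls were lower. In MP against Injured 4 hr, 3 of 62 receptor probes were called, all lower, where 2.05% of all probes were called (2% lower and 0.0455% higher). In Acet against Injured 4 hr, 4 of 67 were called, all lower, where 1.31% of all probes were called (1.2% lower and 0.106% higher). Beta-1 and beta-3 adrenoceptors and Htr6 fell in both, and the muscarinic receptor Chrm3 fell in Acet. In CKIN against Injured 4 hr, 7 of 49 were called, 5 lower and 2 higher, where 20% of all probes were called (18.5% lower and 1.47% higher). The median receptor change was -0.31 in MP, -0.11 in Acet and -0.05 in CKIN, beside -0.27, -0.21 and -0.38 over all probes. These 3 comparisons share the Injured 4 hr arrays, so a probe that read high on those arrays is low in each of them. In MP and Acet no probe of the neuron, astrocyte, oligodendrocyte, microglia, endothelium, muscle or blood marker lists was called, but some list medians lay below those of all probes (-0.27 and -0.21). In MP they were -1.04 for oligodendrocyte, -0.69 for astrocyte, -0.30 for endothelium and -1.24 for blood probes, the last from 3 probes. In Acet they were -0.56 for neuron, -0.44 for oligodendrocyte and -0.23 for blood probes. The part of these shifts in the receptor changes was not tested.

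Adrb1, which drives the heart and also serves noradrenaline signalling in nervous tissue, read -2.13, -1.68 and -2.12 with CKIN, -2.40, -1.39 and -2.42 with MP and -2.79, -1.17 and -1.40 with Acet. The Injured 4 hr values were 0.07, -0.27 and 0.15, so all 9 treated cultures were lower than all 3 controls. The changes were -1.96 ± 0.41 in CKIN (limma adjusted p = 0.00565), -2.06 ± 0.41 in MP (0.0178) and -1.77 ± 0.41 in Acet (0.0383), that is 3.89-, 4.16- and 3.41-fold lower. The CKIN call held without any 1 array of the 6, whereas those in MP and Acet each ended in 5 of 6 omissions, at -2.40 to -1.88 and -2.08 to -1.27. In deposited ratios the Adrb1 change was -0.03 in CKIN, -0.07 in MP and 0.16 in Acet, since the median of all probes there moved by 1.54, 1.67 and 1.64.

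Adrb3 (39D01), the beta-3 adrenoceptor known from fat tissue, read -2.30, -2.06 and -2.09 with MP and -2.69, -2.22 and -1.41 with Acet, against -0.11, -1.05 and -0.53 in Injured 4 hr. The changes were -1.59 ± 0.34 (limma adjusted p = 0.0195) and -1.54 ± 0.34 (0.0313), and after quantile normalization they were -0.74 (0.334) and -0.82 (0.38). In deposited ratios both turned, to 0.40 and 0.39. With CKIN it read -1.52, -1.24 and -1.32, all below the controls. Htr6 read -1.75, -2.22 and -1.81 with MP and -2.08, -1.76 and -1.62 with Acet, below the Injured 4 hr values of -0.31, -0.25 and 0.37. Its changes were -1.86 ± 0.33 (limma adjusted p = 0.0089) and -1.75 ± 0.32 (0.0167). In deposited ratios both turned as well, to 0.12 and 0.18. Among omissions of 1 array, the MP call of Htr6 ended only without Injured 4 hr replicate 3 (-1.64), and its Acet call ended in 4 of 6 omissions. With CKIN, Htr6 was measured on 1 array, at -0.96, and was not tested.

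Chrm3 (41C08), a muscarinic receptor that acts through phospholipase C, read -1.29, -1.84 and -2.41 with Acet against -0.94, 0.19 and -0.02 in Injured 4 hr, a change of -1.59 ± 0.38 (limma adjusted p = 0.0442). The groups were apart, and the call ended after quantile normalization (0.159) and in corrected ratios (0.186). In deposited ratios the change turned to 0.34. The same probe had changes of -1.39 ± 0.38 in MP (0.0599) and -1.05 ± 0.38 in CKIN (0.0564).

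**Figure D4:**
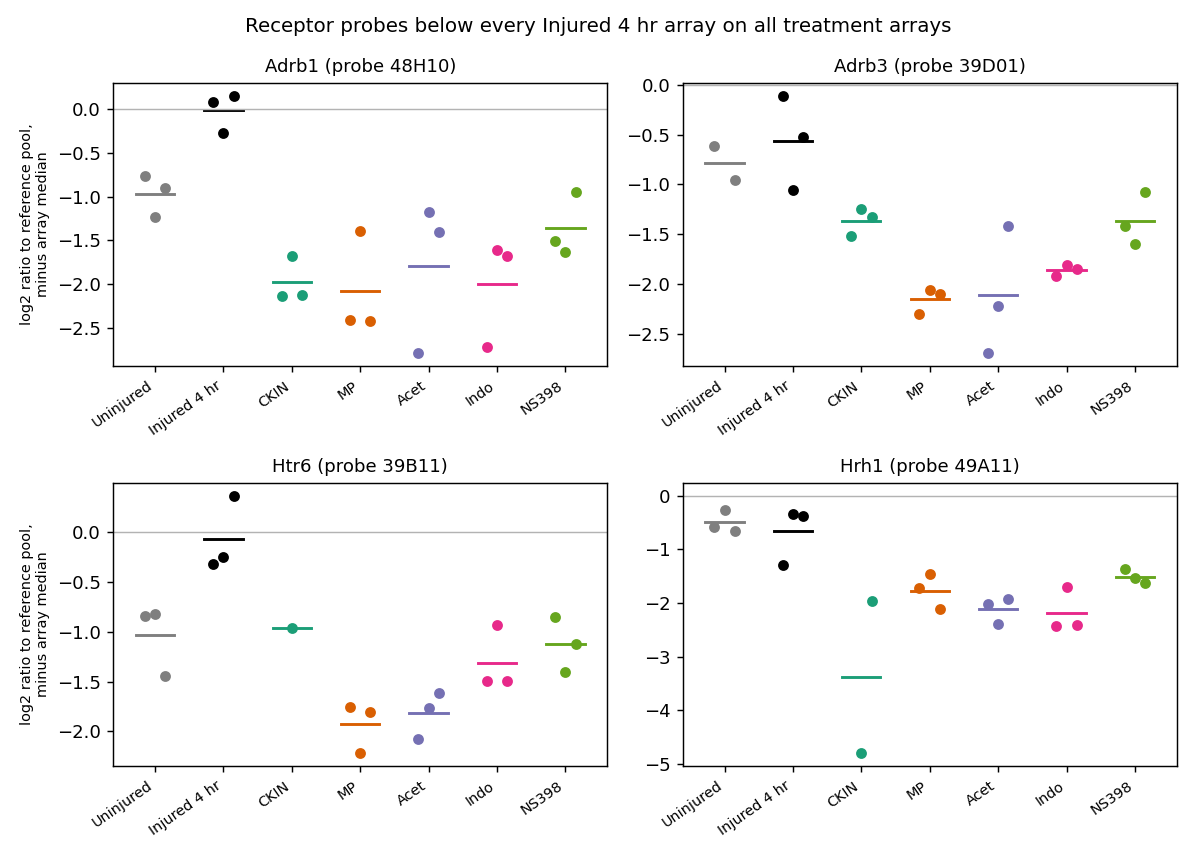
Centred log2 ratios (vertical axis) of Adrb1, Adrb3, Htr6 and Hrh1 in the 7 groups, with 1 point per measured array and a bar at the group mean. For each gene every measured treatment array lies below the 3 Injured 4 hr arrays, and the Uninjured arrays of Adrb1 and Htr6 lie between the Injured 4 hr arrays and most treatment arrays.

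With CKIN all 3 histamine receptor probes were called lower. Hrh1 (49A11), the histamine receptor of allergy and wakefulness, read -4.80 and -1.96 on the 2 measured CKIN arrays against -1.28, -0.34 and -0.37, a change of -2.72 ± 0.54 (limma adjusted p = 0.00439). Hrh2 (50E10), the receptor behind gastric acid secretion, read -1.65 and -0.47 against 0.65, 0.40 and 0.19, a change of -1.47 ± 0.48 (0.0372). Hrh3 read 0.57, -0.11 and 0.47 against 1.30, 1.53 and 1.64, a change of -1.18 ± 0.38 (0.0344). No CKIN value of the 3 probes reached the lowest control value. Hrh1 remained called in corrected ratios and in the 4 omissions that left a test. Neither of its 2 measured CKIN arrays was among these, so the call was not checked without the value of -4.80. Hrh2 lost its call in all 4 omissions that left a test and Hrh3 in 5 of 6. Hrh3 turned to 0.17 in corrected ratios, to 0.74 in deposited ratios and to 0.31 against the PBS pool.

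The other CKIN calls were nicotinic and P2Y receptors. Chrna7 (40C03), the subunit that forms receptors alone, read 0.22, 0.12 and -1.10 against 1.91, 1.66 and 1.99, a change of -2.11 ± 0.60 (limma adjusted p = 0.0206). Chrna10 (18D12) read 1.58 and 0.41 against -0.05, -0.64 and -0.57, a change of 1.42 ± 0.45 (0.0415). Both CKIN values of Chrna10, 1.585 and -0.222 in deposited ratios, were logs of exact ratios of whole numbers up to 12. P2ry4 (24F07) read 0.90 and 1.46 against -0.58, 0.31 and 0.08, a change of 1.25 ± 0.42 (0.0442). In all 3 probes CKIN and control values were apart, but 2 of the 3 rest on 2 CKIN arrays and every call ended in at least 3 omissions. Corrected ratios left 1 of the 7 CKIN calls, Hrh1, and with the array set (the 10 arrays of more than 1100 missing spots, all CKIN arrays included) as a block none was called. Oligodendrocyte markers moved in the same comparison, with 5 of 8 probes lower. Their mean was -0.40 to 0.33 per CKIN array against 1.76 to 1.88 per Injured 4 hr array. Also lower were 3 of 9 astrocyte, 2 of 12 neuron and 2 of 6 microglia and macrophage probes, where 18.5% of all probes were. No endothelium, muscle or blood probe was called. The part of these markers in the receptor changes was not tested.

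Chrna7 40C03 differed between the array sets. It read -1.10 to 0.40 on the 10 treatment arrays of more than 1100 missing spots and 2.27 (MP 2), 2.27 (Acet 2), 1.46 (Acet 3), 0.80 (NS398 2) and 2.52 (NS398 3) on the other 5. The ranges did not overlap. MP, Acet and NS398 hold arrays of both sets, while all CKIN and Indo arrays are of the first, and with the array set as a block its CKIN change was -0.30 (limma adjusted p = 0.884).

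Indomethacin cultures were lower than the ethanol pool in 10 of 52 receptor probes and higher in none, where 13.3% of all probes were called, 10.7% lower and 2.6% higher. The receptors that fell were 2 beta adrenoceptors, 3 muscarinic receptors, 2 dopamine receptors and 1 each of alpha adrenoceptors, serotonin and histamine receptors. The median receptor change was -0.20, against 0.02 over all probes. The pool is here a single control sample, and its own spread is outside the test. As a measure of what such a test calls between like samples, Injured 4 hr against the PBS pool gave 5 of 69 receptor probes and 22.1% of all probes, 21% higher and 1.09% lower.

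Adrb1 read -2.72, -1.61 and -1.68 with indomethacin, a mean of -2.00 ± 0.29 (SE; limma adjusted p = 4.97e-05), 4.01-fold below the pool. Adrb3 read -1.92, -1.81 and -1.85 (-1.86 ± 0.24, 2.47e-05), Hrh1 -2.44, -1.70 and -2.41 (-2.18 ± 0.34, 0.000118) and Htr6 -1.50, -0.93 and -1.50 (-1.31 ± 0.23, 0.000481). These 4 calls held without any 1 of the 3 arrays. Chrm5 read -4.96, -0.50 and -3.44, the widest spread among the called probes, with a mean of -2.97 ± 0.55 (limma adjusted p = 0.000567) and an SD of 2.27. Chrm3 (41C08) read -0.97, -1.28 and -0.66, and Chrm1 (48C05), the main muscarinic receptor of forebrain neurons, -1.32, -0.32 and -1.25. Their means were -0.97 ± 0.27 (limma adjusted p = 0.0178) and -0.96 ± 0.26 (0.0133), and each call ended in 2 of 3 omissions and in corrected ratios.

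Of the 5 dopamine receptor probes 3 could be tested with indomethacin, Drd2, Drd3 and Drd5. Drd2 and Drd3, of the branch that lowers cyclic AMP, were called. Drd1 was measured on 1 Indo array and Drd4 on none. Drd2 read -0.89, -1.04 and -1.61 and Drd3 -0.93, -1.18 and -1.34, with means of -1.18 ± 0.27 (limma adjusted p = 0.0031) and -1.15 ± 0.27 (0.00435). Every array was below the pool, and Drd2 lost its call without Indo replicate 3 (-0.97) and in corrected ratios (-0.31, adjusted p = 0.426). Adra1b read -1.09, -0.59 and -1.05, a mean of -0.91 ± 0.28 (limma adjusted p = 0.03), and lost its call without Indo replicate 1 or 3. Of the like sets, 6 of 27 glutamate, GABA and glycine receptor probes and 9 of 60 channel probes were called, also all lower.

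NS398 cultures differed from the DMSO pool in 11 of 63 receptor probes, where 22% of all probes were called. Of the 11, 8 were lower and 3 higher, beside 11.3% lower and 10.7% higher over all probes. The 2 beta adrenoceptors, Htr6, Hrh1, Drd2, Adra2a and 1 of 2 probes each of Htr7 and Chrm3 fell. Adora2a, P2rx6 and Hrh3 were called higher. The median receptor change was -0.14 against -0.02.

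Chrm3 (41C08) had the firmest fall with NS398, at -1.98, -1.62 and -1.95 (mean -1.85 ± 0.27; limma adjusted p = 7.3e-05). Adrb1 read -1.51, -1.63 and -0.95 (-1.36 ± 0.29, 0.00217), Adrb3 -1.42, -1.60 and -1.08 (-1.37 ± 0.24, 0.000466), Htr6 -0.85, -1.40 and -1.12 (-1.12 ± 0.23, 0.00189) and Hrh1 -1.37, -1.53 and -1.62 (-1.51 ± 0.34, 0.0037). All 3 arrays were below the pool for these 5 probes, and their calls held without any 1 array. When only the NS398 arrays were fitted, which leaves few degrees of freedom, 2 of the 11 receptor calls were made. Adra2a (38D09), the alpha-2 receptor targeted by clonidine, read -4.11, -0.27 and -1.27, a mean of -1.88 ± 0.43 (limma adjusted p = 0.0049), and was at -0.77 and not called without replicate 1. Htr7 (38C10) read -0.82 and -1.70 on 2 arrays (-1.26 ± 0.35, 0.0165) and Drd2 -1.18, -0.97 and -0.72 (-0.96 ± 0.27, 0.0133). The lower Htr7 value, -3.32 in deposited ratios, was the log of an exact ratio of whole numbers up to 12. The other Htr7 probe, 38F03, read -0.69 and -0.09 on the same arrays and was not called.

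The probes called higher with NS398 were also high in cultures without it. Adora2a read 0.66, 1.00 and 1.89 (mean 1.18 ± 0.26; limma adjusted p = 0.0024), P2rx6 0.62, 1.20 and 0.65 (0.82 ± 0.21, 0.00697) and Hrh3 -0.21, 1.27 and 1.55 (0.87 ± 0.27, 0.0243), the last with 1 array below the pool. Injured 4 hr cultures, which are like their PBS pool, gave 1.58 ± 0.25 for Adora2a (limma adjusted p = 0.000147), 0.69 ± 0.20 for P2rx6 (0.0127) and 1.49 ± 0.27 for Hrh3 (0.000257). Chrna7 40C03 was called higher there too (1.85 ± 0.43, 0.00222), and Drd5 (49B08) lower (-0.99 ± 0.34, 0.0413). After quantile normalization the NS398 value was 0.23 for Adora2a and -0.031 for P2rx6.

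Against the PBS pool, the other 3 treatments gave longer lists. MP then had 17 of 62 receptor probes called, beside 31% of all probes (15.9% higher and 15.1% lower). Acet had 16 of 67, beside 30.2% (16.9% higher and 13.4% lower), and CKIN 8 of 49, beside 13.9% (3.69% higher and 10.2% lower). In this setting Adrb1, Adrb3, Hrh1, Chrm3 41C08, Drd2 and Chrnb2 (41D08) were lower and Adora2a was higher in each of the 3, and Htr6 and Drd3 were lower in MP and Acet. The 3 comparisons share this kind of reference. Adora2a was also high in Injured 4 hr. Of the lower probes, the Injured 4 hr mean was -0.02 ± 0.23 (SD, n = 3) for Adrb1, -0.07 for Htr6 and 0.04 for Drd3. It was -0.56 for Adrb3, -0.63 for Drd2, -0.66 for Hrh1, -0.38 for Chrnb2 and -0.26 for Chrm3 41C08, none of them called.

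Across all 15 treatment arrays a small set of receptors stayed on 1 side. With at least 12 of the 15 arrays measured, 44 receptor probes could be judged, and 4 lay below every Injured 4 hr array on every measured treatment array. Over all probes 6.95% did so, and 233 of 3353 probes were of this kind, so the receptor count is near the background. These were Adrb1 (15 arrays, -2.79 to -0.95, median -1.68), Adrb3 (15 arrays, -2.69 to -1.08, median -1.81), Htr6 (13 arrays, -2.22 to -0.85, median -1.50) and Hrh1 (14 arrays, -4.80 to -1.37, median -1.94). The same held for all 4 probes in corrected ratios. Those are fitted to the mean of the Injured 4 hr arrays themselves, so this is not a separate check. After quantile normalization it held for Adrb1 and Htr6, while 1 of 15 arrays of Adrb3 and 1 of 14 of Hrh1 lay below every Injured 4 hr array. After scale normalization 12 arrays of Adrb3 and 11 of Hrh1 lay below, and in deposited ratios at most 4 arrays of any of the 4 probes did. None lay above every Injured 4 hr array, against 0.298% of all probes.

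Relative to the array median, 8 of the 44 probes were below it on every measured treatment array (9.53% of all probes) and 1 was above it (5.18%). The 8 were Adrb1, Adrb3, Htr6, Hrh1, Drd2, Chrm3 41C08, Chrm5 and Chrnb2. The 1 above was P2rx6, at 0.11 to 1.20 with a median of 0.63.

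The sequences just upstream of the start of Adrb1, Htr6 and Hrh1, the members of that set with a sequence in the reference table, are shown because these genes read low together. Each is the 120 bases before the annotated start in RefSeq's GRCr8 build, 5′ to 3′ on the gene's own strand, at chr1:265776983-265777102 (plus strand), chr5:156595148-156595267 (minus strand) and chr4:149120391-149120510 (plus strand). Capitals mark matches, on either strand, to GGGCGG (the GC box), TGACG (the core of the cyclic AMP response element), AGAACA (a glucocorticoid receptor half-site) or TATAAA (the TATA box).
Adrb1: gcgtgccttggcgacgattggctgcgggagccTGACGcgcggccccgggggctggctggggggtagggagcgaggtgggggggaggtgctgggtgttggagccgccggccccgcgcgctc
Htr6: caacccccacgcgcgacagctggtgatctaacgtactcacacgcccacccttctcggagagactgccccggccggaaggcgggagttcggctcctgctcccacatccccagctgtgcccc
Hrh1: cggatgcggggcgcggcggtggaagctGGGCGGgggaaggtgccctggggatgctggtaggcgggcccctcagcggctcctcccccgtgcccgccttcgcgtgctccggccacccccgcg
Adrb1 held 1 TGACG and Hrh1 1 GGGCGG, and Htr6 held no match to the 4 strings. No string was shared by the 3 windows. Their GC content was 78.3%, 67.5% and 79.2%, above the median of 53.3% over all 33469 promoters in the table. Adora1, which is not of that set, had 64.2% in the same window. Whether GC content differed between that set and the other receptors was not tested. GGGCGG stood in 23.7% of all promoters and in 42.3% of 52 promoters of these receptors (51 of the 65 genes had an entry), TGACG in 11.5% and 11.5%, AGAACA in 8.87% and 1.92% and TATAAA in 6.66% and 0%. A match is a string of letters and not a site shown to work in these cells.

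No receptor was called for any single treatment against the rest. With each treatment set against the mean of the other 4, 0 of 37 receptor probes were called in limma in each of the 5 comparisons. Over all 3227 probes, 0.589% were called for CKIN, 0.031% for MP, 0.124% for Acet, 0% for Indo and 2.45% for NS398 (1.46% higher and 0.992% lower). At an unadjusted p under 0.05 the receptor counts were 4, 3, 4, 6 and 1. These comparisons set ratios to the PBS, ETOH and DMSO pools against each other, so differences between the pools enter them and cannot be told apart from those between treatments. The smallest adjusted p was that of Hrh1 in CKIN (-1.49 ± 0.45, limma adjusted p = 0.097), and Adora2a in Indo, at 0.15, -0.10 and -0.36, had the smallest unadjusted p (-1.22 ± 0.29, adjusted p = 0.245). Other settings gave 1 call each: Adora2a lower in Indo after quantile normalization (-1.47 ± 0.25, limma adjusted p = 0.00985), Hrh1 lower in CKIN after scale normalization (-1.86 ± 0.48, 0.0402), Adra2c lower in NS398 in deposited ratios (-1.21 ± 0.34, 0.0334) and Htr1a higher in CKIN when 1 array sufficed (2.44 ± 0.54, 0.0465). For Adrb1 the 5 differences ran from -0.29 ± 0.32 (MP) to 0.60 ± 0.32 (NS398). A p above the threshold does not show that the treatments acted alike.

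Probes of the same gene often disagreed. Chrm3 41C08 was below the array median on all 15 treatment arrays (-2.41 to -0.66), while Chrm3 29G11, measured on 13, read -0.42 to 0.81 and was called in no comparison. Chrna7 40C03 read 0.83 to 1.50 in Uninjured and 1.66 to 1.99 in Injured 4 hr, whereas Chrna7 19A08 read -1.21 to -0.65 and -0.25 to -0.08, so both probes were higher in cultures (0.76 ± 0.60 and 0.70 ± 0.41, limma adjusted p = 0.424 and 0.269). With CKIN the pair parted, and 19A08 read -1.16, 0.65 and -0.10 against -0.08, -0.15 and -0.25. Htr7 38C10 and 38F03 had opposite signs in culture against fresh cord (-0.37 ± 0.45 and 0.38 ± 0.40). So had P2rx2 19G06 and 19G11 (0.57 ± 0.49 and -0.06 ± 0.36), and neither gene was called there. With NS398, Htr7 38C10 was called lower and 38F03 was not called. The annotation gives a different sequence record for each probe of these 4 genes.

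**Figure D5:**
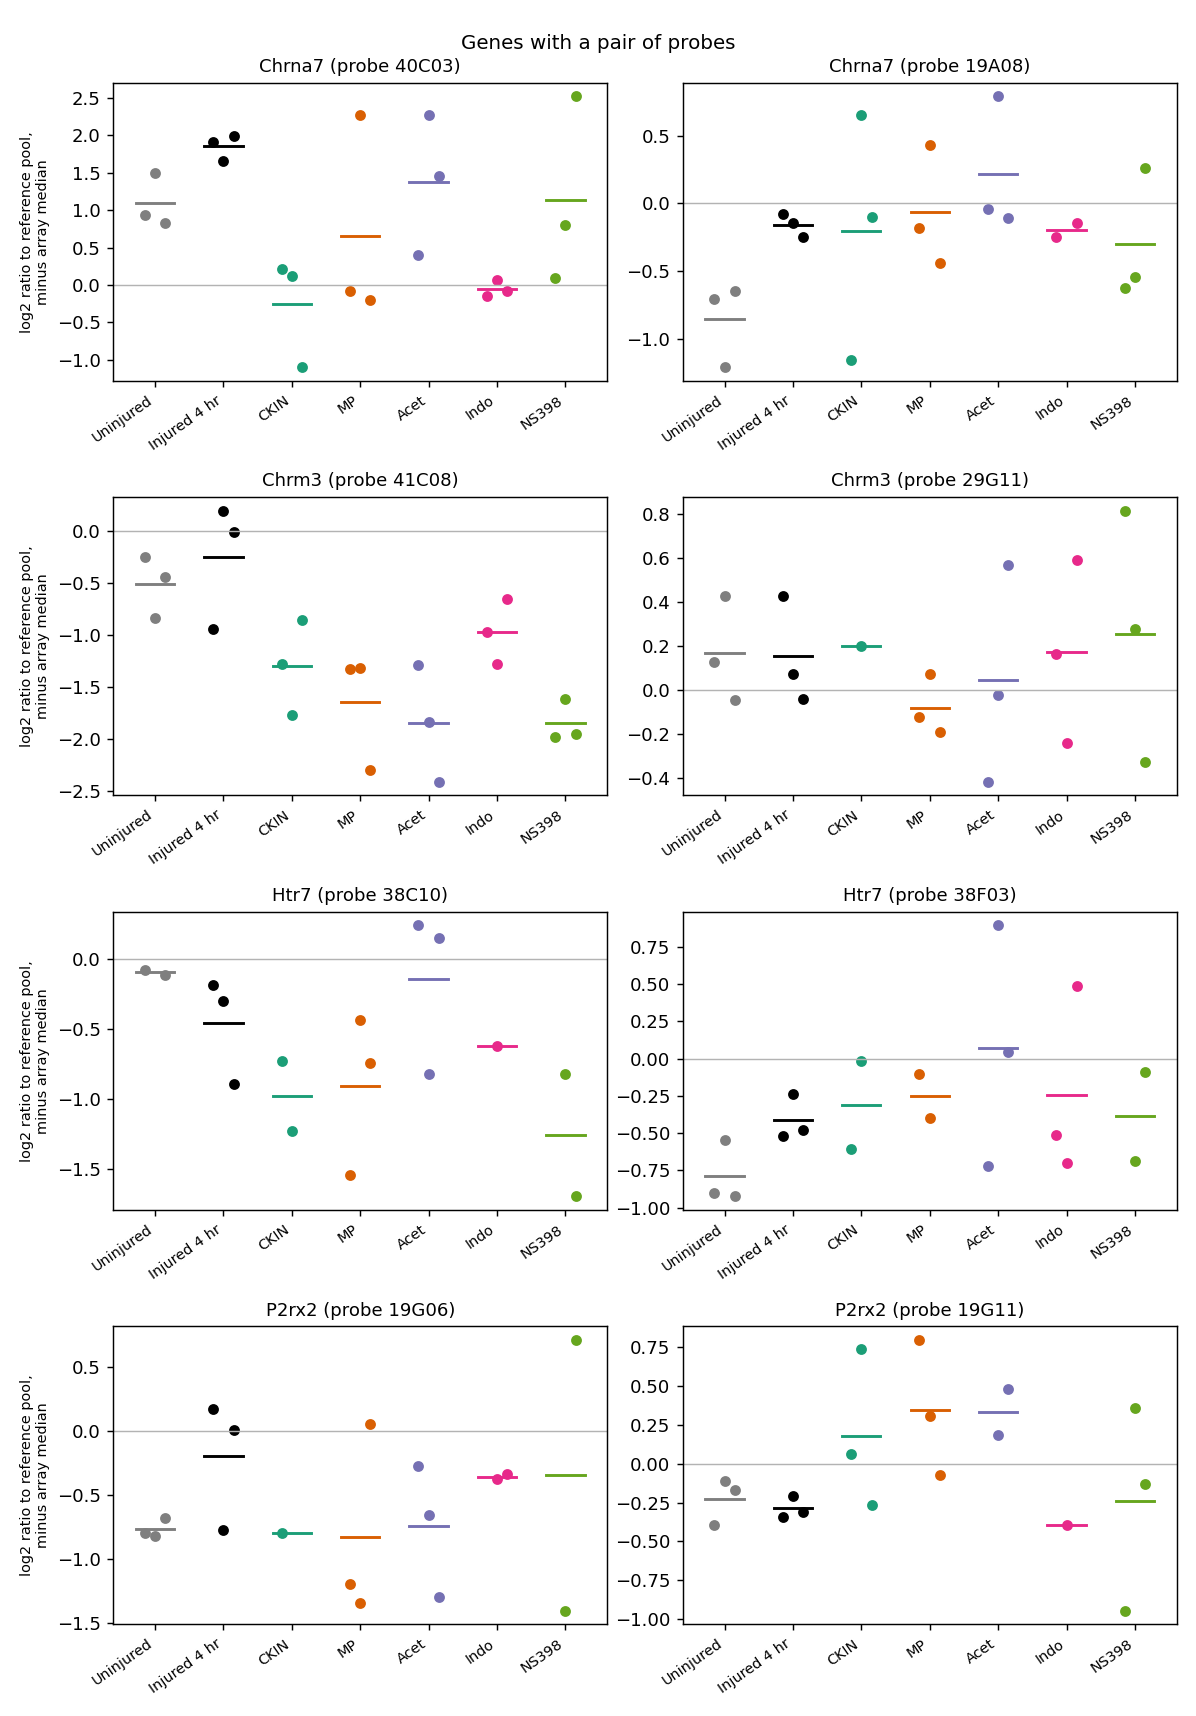
Centred log2 ratios (vertical axis, a scale of its own in each panel) of both probes of Chrna7, Chrm3, Htr7 and P2rx2 in the 7 groups, with 1 point per measured array and a bar at the group mean. Chrm3 41C08 is below 0 on every treatment array while Chrm3 29G11 scatters around 0, and Chrna7 40C03 is split within MP, Acet and NS398.

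Under treatment, none of the probes of the transmitter and receptor handling lists was called in MP or Acet, where 2.05% and 1.31% of all probes were, nor in Indo, where 13.3% were. For the transmitter genes 1 of 25 probes was called in CKIN (20% of all probes) and 4 of 26 with NS398 (22%). In CKIN Maoa, the other monoamine oxidase, fell by 1.29 (limma adjusted p = 0.0466) and was higher in Injured 4 hr against the PBS pool (1.44 ± 0.32). With NS398, Maob (1.22 ± 0.24) and Qdpr, which regenerates the cofactor of monoamine synthesis (1.15 ± 0.41), were higher, and the nucleoside transporter Slc29a1 (-1.52 ± 0.30) and Ache (-1.06 ± 0.36) were lower. Maob and Qdpr were also called higher in Injured 4 hr against the PBS pool (0.78 ± 0.24 and 2.16 ± 0.41). Among genes that handle the receptors, Arrb2, an arrestin that turns receptors off, was lower in CKIN (-1.73 ± 0.35) and higher with NS398 (1.77 ± 0.25) and in Injured 4 hr against its pool (1.39 ± 0.24). Rgs2, which shortens G protein signals, was higher with NS398 (1.06 ± 0.26) and in Injured 4 hr against its pool (0.96 ± 0.26), and the kinase gene Grk1 was lower with NS398 (-1.35 ± 0.32).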

How the data were processed

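RNA of 21 samples was compared with reference pools on arrays with 2 channels. The authors deposited 1 table of log2 ratios. Its direction, sample over pool, is likely from the sample titles, and its base was read from values that recur as exact logs of small ratios. The sources used here do not give dyes, scanner, background correction or normalization. Blank cells were missing values. Of 5376 probes, 4962 had a value. Symbols came from the platform annotation, updated by gene identifier for 68 of the 69 receptor probes.

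Arrays were centred on their median, and 1 limma model (limma 3.58.1, R 4.3.3) with a coefficient per group was fitted to all 21. Probes with values on 2 or more arrays in both groups were tested. CKIN, MP and Acet were set against Injured 4 hr, and Indo and NS398 against 0. The number of arrays limits the precision. Corrected ratios subtract a loess curve (span 0.4) on the mean Injured 4 hr ratio and centre source plates of at least 20 probes. Alternatives were other scalings, filters, blocks, references and omitted arrays. The model was tested on simulated data. A simulated log2 change of 1 was called for 6.15% of the changed probes in Injured 4 hr minus Uninjured. It was called for 15.4% in CKIN, 11.5% in MP, 21.5% in Acet, 42.6% in Indo and 41.9% in NS398. For a change of 2 the share was 79% to 96.7%. Most changes near 1 would thus be missed.

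The receptors, gene lists and tests were chosen with earlier results of these data known. Array values are given for called probes of 1 sign, for the largest rise and fall of each family between Uninjured and Injured 4 hr, and for genes with several probes. Other values, such as those of Adora2a, Adora2b, P2rx7, Adra1b, Drd3 and Chrna1 there, Htr1a in CKIN and Hrh3 with NS398, were chosen after they were seen.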

Additional observations from a re-analysis of the deposited data

Results flagged for a closer look

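Drd5 (probe 49B08), the dopamine receptor akin to Drd1, lay on opposite sides of the array median in CKIN and Indo cultures. It read -0.50, -0.03 and -1.19 on the CKIN arrays and 1.72, 0.51 and 0.21 on the Indo arrays, with means of -0.57 and 0.81 and a difference of -1.39. It stands out because the arrays of 1 treatment were all below 0 and those of the other all above it, though CKIN 2 was at -0.03. Injured 4 hr cultures, at -0.42, -0.71 and -1.85, had a lower mean (-0.99) than CKIN cultures. The difference between CKIN and Indo was not tested, and their references were different pools. Indo against the mean of the other 4 treatments differed by 1.23 ± 0.38 in limma (unadjusted p = 0.00338, adjusted p = 0.55), with all 3 Indo arrays above 0.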

How the results depend on the processing

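Counts of receptor probes called depended most on how the arrays were scaled. Deposited ratios, without centring, gave 51 for Injured 4 hr against Uninjured, 35 for CKIN, 44 for MP, 45 for Acet and 35 for NS398. All 68 receptor changes of the first comparison were then positive, against 45 in centred ratios. Among those that turned were Adora1 (0.21), Htr3b (1.51), Chrm2 (1.42), P2ry2 (1.50), P2rx2 19G11 (1.46), Chrm3 29G11 (1.51), Adra2c (0.64), Drd2 (1.07), Hrh1 (1.36), P2rx7 (0.60) and Htr7 38C10 (0.96). Calls that turned in the other comparisons included Hrh2 (0.41) and Hrh3 (0.74) in CKIN and Adrb3 (0.40) and Htr6 (0.12) in MP. In Acet they were Adrb1 (0.16), Adrb3 (0.39), Htr6 (0.18) and Chrm3 41C08 (0.34), and in NS398 P2rx6 (-0.07) and Hrh3. The deposited NS398 values of Hrh3 were -0.37, 0.37 and -0.07, with a negative mean. The median of all probes then moved by 1.47 between Uninjured and Injured 4 hr and by -0.98 in NS398. Quantile normalization gave 0 for Injured 4 hr against Uninjured, 2 for Acet, 39 for Indo and 48 for NS398, where it turned P2rx6 (-0.031) and moved the median of all probes by -1.08. Scale normalization gave 0 for Injured 4 hr against Uninjured and 6 for MP. Corrected ratios gave 1 for CKIN and turned Hrh3 (0.17), as did the PBS pool as reference (0.31), which gave 17 for MP and 16 for Acet. Deposited ratios, quantile and scale normalization and a filter of 1 array each gave 1 call for a treatment against the others. All 3 arrays measured left 4 in CKIN. Fitting only the compared arrays gave 20 for Injured 4 hr against Uninjured, 6 for Indo and 2 for NS398. The array set as a block gave 8, 0 and 1 for Injured 4 hr against Uninjured, CKIN and MP. Only arrays with at most 1100 missing spots, an alternative chosen after seeing the data, gave 10 for Injured 4 hr against Uninjured, 1 for MP and 2 for Acet.

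With the replicate number as a block, 1 probe was called for Injured 4 hr against Uninjured, 7 in CKIN, 3 in MP, 4 in Acet, 12 in Indo, 13 in NS398 and 0 for the treatments against each other. Samples of the same number did not deviate together (correlations from -0.0827 to 0.051). With 3 pairs per comparison this cannot show that samples of the same number were of separate origin. Leaving out 1 array at a time gave 0 to 1 calls for Injured 4 hr against Uninjured, 1 to 4 in CKIN, 0 to 6 in MP, 0 to 4 in Acet, 7 to 10 in Indo, 7 to 11 in NS398 and 0 to 0 for the treatments against each other. The cause of these differences was not tested. Missing spots and ratios of small whole numbers on the treatment arrays limit what could be tested there.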
